A study of Mus musculus with 16 samples.

Results

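The endothelial barrier and adhesion genes are 10 genes of the vessel wall, *Cldn5*, *Ocln*, *Mfsd2a*, *Slc2a1*, *Abcb1a*, *Plvap*, *Icam1*, *Vcam1*, *Pecam1* and *Vwf*. They were chosen by name, and all 10 were found among the 20134 genes with a value on all 16 arrays. *Ocln*, *Plvap* and *Vcam1* had 2 probes each, the others had 1, and the probe that was brightest on average stands for the gene.

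Total RNA was taken from the right, unlesioned neocortex rostral to bregma of C57BL/6J mice, and RNA of the animals of a group, described as male in the study's methods, was pooled. In neonatal brain hemisuction (NBH) the left cortex with its sensorimotor area was aspirated at postnatal day 7 (P7), and the pools were made 1 week later at P14 and 4 weeks later at P35. In adult brain hemisuction (ABH) the same side was aspirated in adults, over a larger area by the study's methods. The labels give the pools of 1 week and 4 weeks an age of 11 weeks and 15 weeks. Control pools came from mice without surgery at P7, P14, P35 and 10 weeks. NBH 1 week was compared with control P14, NBH 4 weeks with control P35, and both ABH pools with control 10 weeks, so the 2 ABH comparisons share their control. Both ABH pools are older than that control by their labels, so age and surgery cannot be told apart in them. The 10 weeks and P7 controls were also compared.

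Each of the 8 pools was hybridised once with Cy3 and once with Cy5. A level below is a log2 signal minus the 75th percentile of its array, so 0 is the brightness of a probe at that percentile. An error is the SD of the 2 dyes. It covers labelling and hybridisation, not animals, and with 1 pool in a group no test between groups is possible. A gene was called higher at 1.5-fold or more and lower at 0.75-fold or less, with both dyes in each case. Levels of different genes cannot be set against each other, because probes differ in brightness.

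Median signals were 192.5 to 253.0 units per array over a background of 59.0 to 72.0 units, and 60.2% to 72.2% of probes were well above background by the scanner software's flag. Control pools lay in the first row of each slide and surgery pools in the second, so position and surgery cannot be told apart. All 10 markers of neocortical neurons were well above background in every pool. *Xist*, the RNA that coats the inactive X chromosome of females, was above background on 2 arrays of control P35 (−2.65), on 1 array each of control 10 weeks and ABH 4 weeks, and on none of the other 5 pools, while the Y-linked gene *Ddx3y* was well above background in all 8. Of 3 other Y-linked genes, *Eif2s3y* (1.38, against 1.88 to 2.62 in the other pools) and *Uty* (−2.75, against −2.45 to −2.17) were lowest in control P35, and *Kdm5d* was well above background on 1 array of control 10 weeks alone. Whether the P35 pool held RNA of females was not tested. The NBH 4 weeks comparison is therefore also given against control 10 weeks. Steps between control ages that use P35 have no such second value.

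Brain endothelium closes the space between its cells with tight junctions, takes up few vesicles and carries nutrients across by dedicated transporters, which together form the blood-brain barrier. The same cells can display adhesion molecules that bind integrins of leukocytes, and they store von Willebrand factor, which captures platelets. In a sample of whole tissue, fewer endothelial cells and less RNA per endothelial cell cannot be told apart. Among 24 markers of endothelial identity, 23 were well above background on both arrays in every pool. Their summed linear level was 77.8 to 80.7 times the 75th percentile in control P7, and 102 to 118 times in the other 7 pools. The brightest genes weigh most in such a sum, and *Ly6c1* rose from 1.67 in control P7 to 3.93 in control 10 weeks. Between these 2 pools 5 of the 24 markers were called higher and 3 lower. The median log2 fold change of the list was 0.09, so the sum does not describe the markers as a set.

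The RefSeq promoter set (GRCm38.p6) held entries for 6 of the 10 genes, and none was matched for *Plvap*, *Vcam1*, *Pecam1* and *Vwf*. The 250 bases before the start are shown for *Cldn5* and *Mfsd2a*, which were lower in the older control, for *Slc2a1* and *Abcb1a*, which were higher there, and for *Icam1*, an adhesion gene whose promoter is known for a binding site of NF-κB, the main transcription factor of inflammation. All are read 5′ to 3′ along the gene. Capitals mark GGAAATTCC, the letters of that site, and GGGCGG, the GC box bound by Sp1, on either strand.
Cldn5 (chr16:18776597-18776846, + strand): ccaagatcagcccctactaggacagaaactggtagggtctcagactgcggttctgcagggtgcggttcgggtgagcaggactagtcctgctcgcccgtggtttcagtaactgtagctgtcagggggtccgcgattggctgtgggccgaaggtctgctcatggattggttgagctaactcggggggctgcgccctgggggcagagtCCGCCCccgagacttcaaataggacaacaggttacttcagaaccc
Mfsd2a (chr4:122961189-122961438, − strand): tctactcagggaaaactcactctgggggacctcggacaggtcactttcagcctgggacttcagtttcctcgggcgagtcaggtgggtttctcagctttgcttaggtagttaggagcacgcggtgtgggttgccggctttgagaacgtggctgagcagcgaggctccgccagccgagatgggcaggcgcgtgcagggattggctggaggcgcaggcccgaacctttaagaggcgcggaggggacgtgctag
Slc2a1 (chr4:119108495-119108744, + strand): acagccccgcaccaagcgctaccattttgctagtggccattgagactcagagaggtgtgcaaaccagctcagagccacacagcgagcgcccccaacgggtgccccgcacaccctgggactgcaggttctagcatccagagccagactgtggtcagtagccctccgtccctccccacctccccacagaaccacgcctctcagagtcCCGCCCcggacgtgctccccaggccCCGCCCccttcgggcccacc
Abcb1a (chr5:8566841-8567090, + strand): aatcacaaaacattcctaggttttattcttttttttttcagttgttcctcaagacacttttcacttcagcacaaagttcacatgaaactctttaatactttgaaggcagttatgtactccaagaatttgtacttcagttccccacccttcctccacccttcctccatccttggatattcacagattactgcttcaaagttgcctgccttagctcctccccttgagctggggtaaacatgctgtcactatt
Icam1 (chr9:21015690-21015939, + strand): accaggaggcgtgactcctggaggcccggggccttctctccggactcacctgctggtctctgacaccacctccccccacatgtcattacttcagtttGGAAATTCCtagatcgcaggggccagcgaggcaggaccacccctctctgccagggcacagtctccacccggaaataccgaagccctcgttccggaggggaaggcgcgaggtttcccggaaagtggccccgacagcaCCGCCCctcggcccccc

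GGAAATTCC stood once in the *Icam1* promoter, at positions −153 to −145 from the start, and in none of the other 5. It was held by 0.286% of all 32851 promoters in the set, and it was searched after the *Icam1* sequence had been read. GGGCGG, or CCGCCC on the other strand, stood 2 times in *Slc2a1*, once each in *Cldn5* and *Icam1*, once in each of the 2 *Ocln* promoters, and not in *Mfsd2a* or *Abcb1a*, against 32.7% of all promoters. Of 4 motifs searched, the others were a loose NF-κB pattern (GGG and CC with 5 bases between) in 45.8% of all promoters, and AGGAAG, an ETS core, in 29.5%. The loose pattern stood in all of these genes but *Mfsd2a* and *Abcb1a*. AGGAAG stood 2 times in *Abcb1a* and in no other of these promoters. The *Abcb1a* stretch held 40.4% G and C, and the other 6 stretches between 59.6% and 69.2%. The promoters of the pair that was higher with age shared neither a GC box nor a like base composition.

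Across the 8 pools, the young ones (control P7, control P14 and NBH 1 week) stood apart from the older ones without overlap for *Mfsd2a*, *Vcam1* and *Cldn5*, in which they held the highest levels, and for *Abcb1a*, in which they held the lowest.

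**Figure D1:**
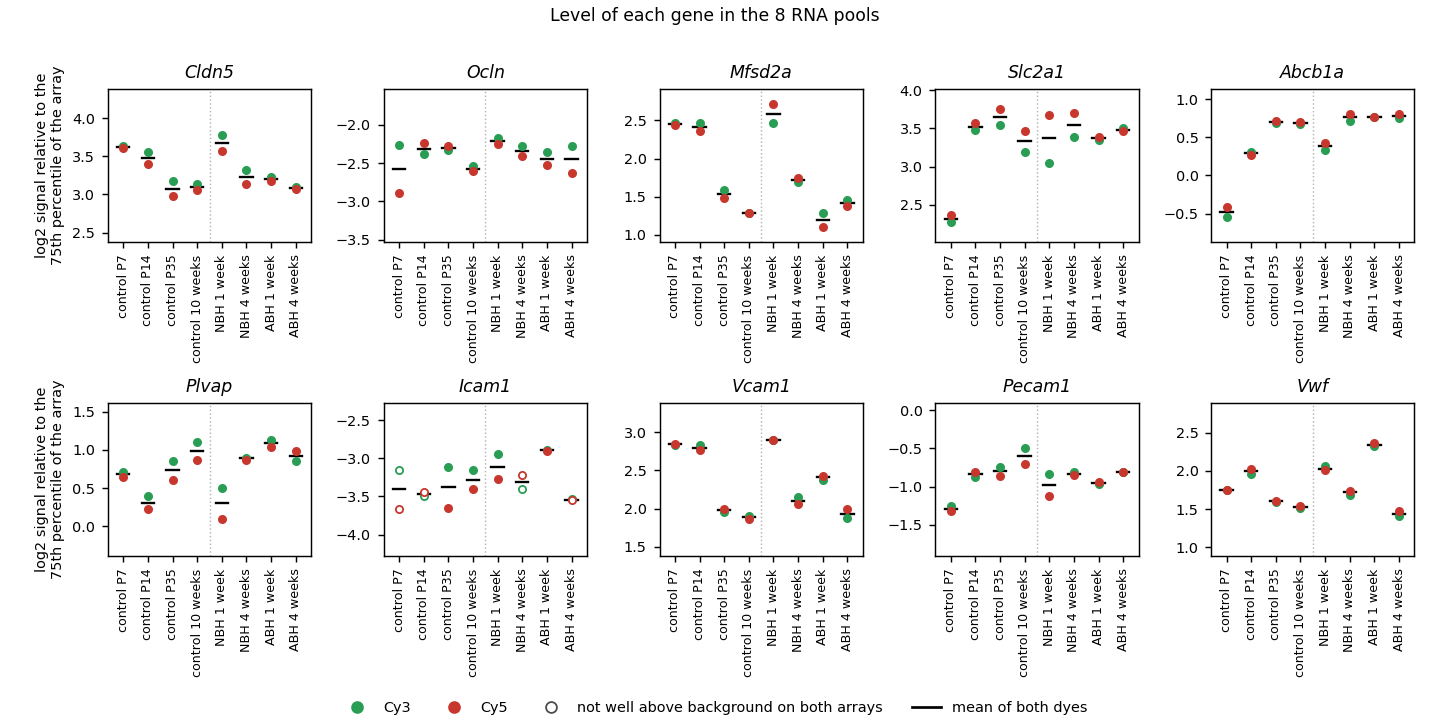
Level of each gene (log2 signal minus the 75th percentile of the array; every panel spans 2 log2 units) in the 4 control pools and the 4 surgery pools, with a point for each dye and a line at their mean. *Mfsd2a*, *Vcam1* and *Cldn5* are high in P7, P14 and NBH 1 week, *Slc2a1* and *Abcb1a* are lowest in P7, and *Vwf* is highest in ABH 1 week.

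Between control 10 weeks and control P7, 3 of the 10 genes were called higher and 3 lower, where 15.0% of the 16367 genes compared were called higher and 21.2% lower. Higher were *Slc2a1*, *Abcb1a* and *Pecam1*, and lower were *Mfsd2a*, *Vcam1* and *Cldn5*. The median log2 fold change was 0.06 over the members and 0.03 over all genes.

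*Slc2a1* encodes GLUT1, the glucose carrier of the barrier. Its level was 2.27 with Cy3 and 2.37 with Cy5 in control P7, 3.48 and 3.57 in P14, 3.54 and 3.76 in P35, and 3.19 and 3.47 at 10 weeks. The P7 pool lay below all other 7 pools with no overlap, and the step from P7 to P14 was 1.20 ± 0.01 (SD of 2 dyes). From P7 to 10 weeks *Slc2a1* rose by 1.01 ± 0.12 on the log2 scale (2.01-fold). The 10 weeks pool was lower than P35 by 0.32 ± 0.04 in turn.

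*Abcb1a* encodes P-glycoprotein, the pump that returns drugs to the blood. Its Cy3 and Cy5 levels were −0.55 and −0.41 in control P7, 0.30 and 0.27 in P14, 0.68 and 0.71 in P35, and 0.67 and 0.70 at 10 weeks. The means of the 5 older pools (control P35, control 10 weeks, NBH 4 weeks and both ABH pools) lay between 0.68 and 0.78, above the 3 young pools without overlap. *Abcb1a* rose 2.24-fold from P7 to 10 weeks (1.16 ± 0.08), with steps of 0.77 ± 0.12 between P7 and P14 and 0.41 ± 0.04 between P14 and P35.

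*Pecam1*, which encodes CD31, an adhesion protein at contacts between endothelial cells, rose 1.61-fold from P7 to 10 weeks (0.68 ± 0.11). Its levels were −1.25 and −1.32 in P7, −0.87 and −0.81 in P14, −0.75 and −0.86 in P35, and −0.49 and −0.71 at 10 weeks. P7 was the lowest pool and 10 weeks the highest of the 8, and P14 and P35 differed by less than the dye spread (0.04 ± 0.12).

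*Mfsd2a* encodes the lipid transporter that carries docosahexaenoic acid into the brain and holds down vesicle transport across endothelium. Its levels were 2.47 and 2.44 in control P7, 2.47 and 2.36 in P14, 1.59 and 1.48 in P35, and 1.29 with both dyes at 10 weeks. P7 and P14 did not differ beyond the dye spread (−0.04 ± 0.06), and P35 was below P14 by 0.88 with each dye. *Mfsd2a* at 10 weeks was 2.24-fold lower than in P7 (log2 −1.16 ± 0.02).

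*Vcam1*, the endothelial ligand of the integrin VLA-4, showed a like course on its bright probe. The levels were 2.84 and 2.85 in P7, 2.83 and 2.77 in P14, 1.96 and 1.99 in P35, and 1.90 and 1.87 at 10 weeks. At 10 weeks it was 1.94-fold lower than in P7 (−0.96 ± 0.04), with −0.83 ± 0.07 between P14 and P35. The second *Vcam1* probe differed by −0.14 ± 0.01 between the same pools and was not called. That probe had raw signals of 159 to 232 units on the 16 arrays, near the background, against 4008 to 10710 units on the bright probe.

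*Cldn5* encodes claudin-5, the main seal of endothelial tight junctions. It was 1.43-fold lower at 10 weeks than in P7 (−0.52 ± 0.04), from 3.63 and 3.61 in P7 to 3.55 and 3.40 in P14, 3.17 and 2.98 in P35, and 3.14 and 3.06 at 10 weeks. P35 and 10 weeks did not differ beyond the dye spread (0.03 ± 0.07). This call, near the limit, held under 11 of 18 alternatives.

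The other 4 genes were not called between these ages. *Vwf* differed by −0.22 ± 0.02, and *Plvap*, which encodes the diaphragm protein of fenestrated and immature vessels, by 0.31 ± 0.11 on its bright probe and 0.59 ± 0.03 on its second. *Ocln*, the junction protein occludin, gave opposite signs with the dyes (−0.28 and 0.29), and *Icam1*, the ligand of the integrin LFA-1, differed by 0.12 ± 0.20 with P7 well above background on 1 of 2 arrays.

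The size of the age differences depends on how arrays are scaled, since the median of all genes moved from 0.03 to between −0.30 and 0.45 over 9 other scalings, and the share of all calls that were lower from 58.5% to between 19.1% and 85.2%. Relative to the median of all genes the differences ran from −1.23 to −1.03 for *Mfsd2a*, −1.03 to −0.81 for *Vcam1* and −0.54 to −0.32 for *Cldn5*. They ran from 0.98 to 1.17 for *Slc2a1*, 1.14 to 1.26 for *Abcb1a* and 0.61 to 0.75 for *Pecam1*. Scalings that shift all genes of an array alike cannot change such a difference. The ranges therefore come from quantile normalization and the processed signal (also as the authors' value table) alone.

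**Figure D2:**
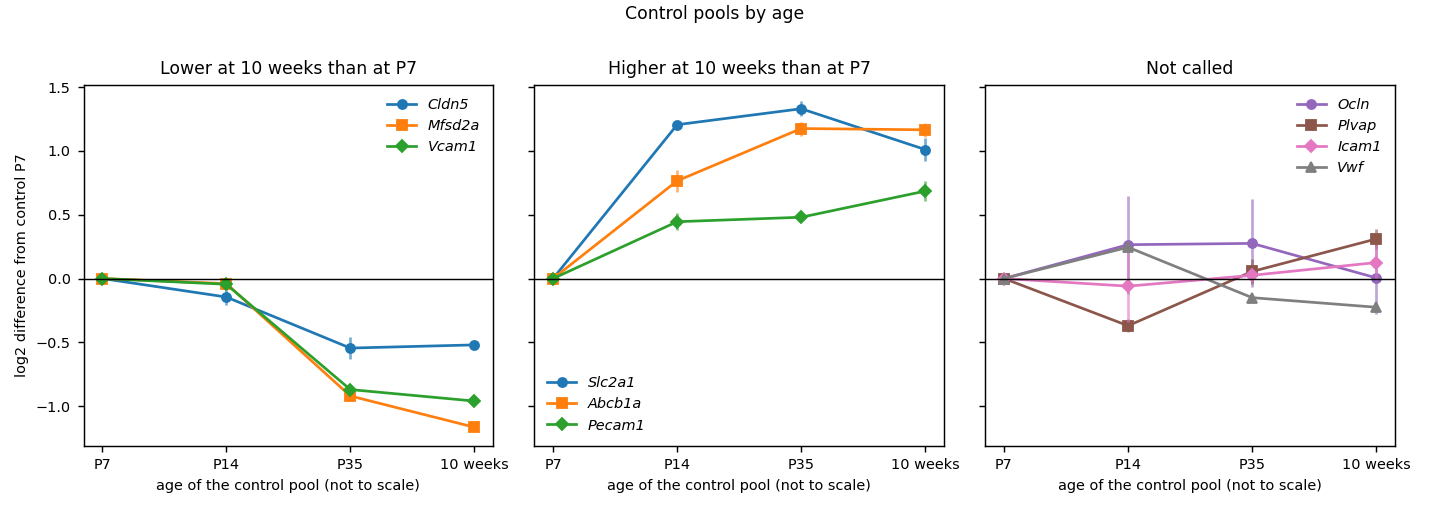
Difference of each control pool from control P7 (log2, mean of both dyes, bars spanning the 2 dyes) at P7, P14, P35 and 10 weeks, in panels for genes called lower, called higher and not called at 10 weeks. *Mfsd2a* and *Vcam1* step down between P14 and P35, while *Slc2a1* takes its step of 1.20 between P7 and P14.

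Other genes of the barrier were called in both directions with age, where 15.0% of all genes compared were called higher and 21.2% lower. Of 20 further barrier transporters and receptors, 4 were called higher and 10 lower at 10 weeks than in P7, with a list median of −0.36. The largest rises were those of *Slc7a5*, the carrier of large neutral amino acids (2.11, 4.33-fold), and *Slco1a4*, an organic anion carrier (1.91, 3.75-fold). The largest falls were those of *Slc38a5*, a glutamine carrier (−2.29), and *Slc39a8*, a zinc and manganese carrier (−1.83). Junction genes beside *Cldn5* and *Ocln* gave 1 higher (*Jam3*, 0.79) and 5 lower of 16 compared, among them the cingulin gene *Cgn* (−1.64) and *Cldn3*, which was not well above background at 10 weeks and is given as at least 3.53-fold lower. Among 17 genes of barrier Wnt signalling 4 were called lower, led by the Wnt target *Apcdd1* (−2.07), and none higher. Their share called lower is near that over all genes.

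Endothelial identity genes gave 5 higher and 3 lower of 24 with a median of 0.09. *Ly6a* (3.38) and *Ly6c1* (2.27), surface antigens of mouse endothelium, rose most, and *Cd93* (−1.81) and *Ramp2* (−0.89) fell most. Of 15 further adhesion genes 3 were called higher and 5 lower, with *Selp*, the gene of P-selectin, higher by 1.98 and *Nectin2* lower by 1.89. Caveolae and permeability genes gave 4 lower of 10, *Aplnr* (−1.52) and *Tfpi* (−1.30) first. None of these list counts was tested against the shares over all genes (15.0% higher and 21.2% lower).

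After neonatal surgery none of the 10 genes was called in either direction at either time. At 1 week, 0.433% of 15469 genes were called higher and 0.401% lower, and at 4 weeks 0.176% and 0.737% of 15873, so 0 of 10 is also what the rates over all genes give. The median log2 fold change of the members was 0.09 at 1 week and 0.09 at 4 weeks, against 0.07 and 0.04 for all genes.

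In NBH 1 week the values ran from −0.16 ± 0.39 for *Slc2a1* to 0.20 ± 0.04 for *Cldn5* among genes measured in both pools. *Slc2a1* was 0.43 lower with Cy3 and 0.12 higher with Cy5, so the dyes disagreed. *Icam1* was well above background in NBH 1 week on both arrays (−2.95 and −3.27) and on neither array of control P14. The difference was 0.54 with Cy3 and 0.17 with Cy5 (0.36 ± 0.26, 1.28-fold), under the limit for a call.

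In NBH 4 weeks they ran from −0.11 ± 0.06 for *Slc2a1* to 0.18 ± 0.12 for *Mfsd2a*. *Icam1* gave opposite signs with the dyes (−0.30 with Cy3 and 0.43 with Cy5), with 1 of the 2 NBH arrays well above background. With the 10 weeks control in place of control P35, the 10 genes lay between −0.23 (*Pecam1*) and 0.43 (*Mfsd2a*) and again none was called.

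The NBH pools followed the age of their controls. *Mfsd2a* was 2.59 ± 0.17 in NBH 1 week and 1.72 ± 0.05 in NBH 4 weeks, beside 2.42 ± 0.08 in control P14 and 1.54 ± 0.08 in control P35. *Vcam1* stood at 2.90 and 2.10, beside 2.80 and 1.98. *Cldn5* was above its control by 0.20 ± 0.04 and 0.16 ± 0.00 at the 2 times, under the limit of a call. All 4 dye differences were above 0 for *Cldn5*, as they were for *Vcam1* and *Abcb1a*, and 67.7% and 62.8% of all genes compared lay above 0 at these times. In the authors' value table without scaling *Cldn5* turned to −0.02 and −0.08.

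Choroid plexus markers moved in both NBH pools. Of 13 compared, 8 were called higher at 1 week and 4 at 4 weeks, led by *Ttr* at 6.54 ± 0.04 and 4.91 ± 0.05, and the summed level of the list was 71.1 to 72.1 in NBH 1 week against 27.6 to 28.5 in control P14. Choroid plexus vessels are fenestrated and carry *Plvap*, which differed by −0.01 ± 0.16 and 0.16 ± 0.16 on its bright probe and by −0.25 ± 0.39 and 0.06 ± 0.21 on its second. Of 7 blood genes compared, 1 was called higher at 1 week (*S100a9*, 1.03 ± 0.22). At 4 weeks 2 were called higher (*Hbb-b2*, 0.97 ± 0.05, and *Alas2*, 0.88 ± 0.13). The summed blood level was 69.6 to 81.8 in NBH 4 weeks against 45.7 to 49.4 in control P35. The part of choroid plexus or blood RNA in the members' values was not tested.

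In ABH 1 week *Vwf* was the 1 gene called among the 10, and it was called higher. In this comparison 4.69% of 16320 genes were called higher and 5.72% lower. The members' median was 0.10 and that of all genes −0.05. The count of 1 in 10 is not set apart from those rates.

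*Vwf* encodes von Willebrand factor, stored in the Weibel-Palade bodies of endothelium. Its levels were 2.32 with Cy3 and 2.37 with Cy5 in ABH 1 week, and 1.51 and 1.54 in control 10 weeks. The raw signals were 5975 and 6633 units against 3140 and 3730 units. ABH 1 week was above every other pool without overlap, the next being NBH 1 week at 2.06 and 2.01. *Vwf* rose 1.76-fold, by 0.81 with Cy3 and 0.82 with Cy5 (0.82 ± 0.01), and by 0.74 against control P35. Relative to the median of all genes the difference was 0.87, and between 0.81 and 0.92 over 9 other scalings. Scalings that shift whole arrays cannot change this value, so its range comes from quantile normalization and the processed signal alone. The call was lost with 2-fold limits and where arrays were scaled on their probes above background alone (0.55), and held under the other 17 alternatives. Some of these could not change it. *Vwf* has 1 probe, well above background on all 16 arrays, so the filter, spot and probe rules left its value as it was. Symmetric limits alter the lower limit alone. In ABH 4 weeks *Vwf* stood at 1.41 and 1.48, the lowest of the 8 pools, with −0.09 ± 0.03 against the same control.

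The adhesion genes came next. *Vcam1* levels were 2.38 and 2.43 in ABH 1 week and 1.90 and 1.87 in control 10 weeks, which did not overlap. The difference was 0.48 and 0.56 (0.52 ± 0.06, 1.43-fold), short of the limit with both dyes. The second, dim *Vcam1* probe gave 0.03 ± 0.01, so the probes disagree and the larger value rests on 1 of them.

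*Icam1* was −2.89 and −2.90 in ABH 1 week and −3.16 and −3.40 in control 10 weeks. Its raw signals were 185 and 184 units against 151 and 132 units, and those of ABH 4 weeks were 118 and 105 units. ABH 1 week was the highest pool for *Icam1* and the difference was 0.39 ± 0.15 (1.31-fold), which was not called. It was called higher under 4 of 19 other settings, with values up to 1.03. *Icam1* was not well above background in ABH 4 weeks. The bound against control 10 weeks was −0.27 with Cy3 and −0.01 with Cy5 (−0.14 ± 0.18), so with Cy5 it gives next to no fall.

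*Pecam1* went the other way in ABH 1 week, at −0.97 and −0.94 against −0.49 and −0.71 in the control. The difference was −0.47 with Cy3 and −0.23 with Cy5 (−0.35 ± 0.17), which passed the limit with Cy3 alone. The 3 adhesion genes and *Vwf* did not share a direction.

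The junction and transport genes were close to their control. *Cldn5* differed by 0.10 ± 0.01, *Ocln* by 0.13 ± 0.07 and *Plvap* by 0.10 ± 0.09. *Mfsd2a* differed by −0.09 ± 0.13, *Slc2a1* by 0.04 ± 0.17 and *Abcb1a* by 0.08 ± 0.02. None of these 6 passed a limit with either dye. The second *Plvap* probe gave −0.23 ± 0.12 and the second *Ocln* probe −0.19 ± 0.02, both with signs opposite to those of the bright probes.

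In ABH 4 weeks, where 0.430% of 16294 genes were called higher and 0.196% lower, none of the 10 was called. The values ran from −0.21 ± 0.16 for *Pecam1* to 0.15 ± 0.23 for *Slc2a1* among the genes measured in both pools. The members' median was 0.01 and that of all genes 0.07. Between the 2 ABH pools themselves, *Vwf* was 0.90 ± 0.01 lower at 4 weeks than at 1 week and *Vcam1* 0.47 ± 0.04 lower, while *Pecam1* differed by 0.14 ± 0.01 and *Cldn5* by −0.12 ± 0.02.

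**Figure D3:**
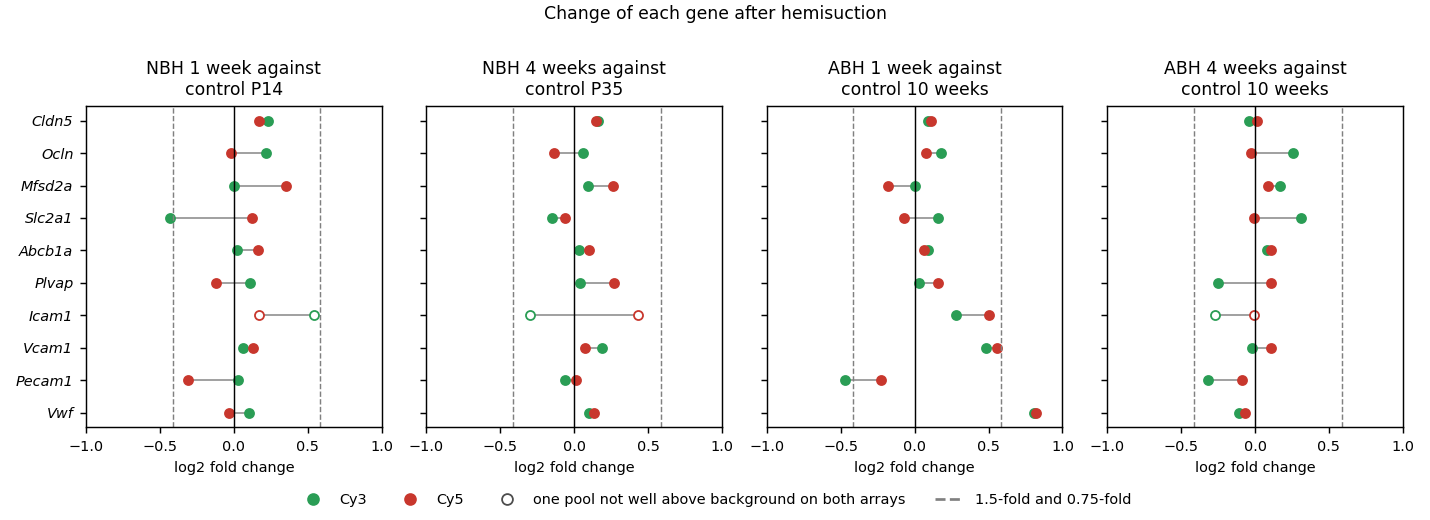
Log2 fold change of each gene with Cy3 and with Cy5 in the 4 comparisons of a surgery pool with its control, with dashed lines at 1.5-fold and 0.75-fold and open points where a pool was not well above background on both arrays. *Vwf* in ABH 1 week is the sole gene with both dyes beyond a line, at 0.81 and 0.82.

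The wider lists show which vessel genes were called beside *Vwf* in ABH 1 week, where 4.69% of all genes compared were called higher and 5.72% lower. Of 13 haemostasis genes 4 were called higher and none lower, with a list median of 0.50. Among them were *Pf4*, platelet factor 4 (2.14 ± 0.02), *Procr*, the endothelial protein C receptor (1.22 ± 0.01), and *Pros1*, protein S (0.87 ± 0.04). *Pf4* is also a marker of platelets and of macrophages at the border of the brain. Of 10 caveolae and permeability genes 3 were called higher, *Cyp1b1* (1.58 ± 0.04), *Angpt2*, the angiopoietin that loosens vessels (0.98 ± 0.15), and *Tfpi*, the inhibitor of tissue factor (0.85 ± 0.05).

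Among 24 endothelial identity genes *Cd93* alone was called (0.88 ± 0.08), with a list median of 0.08. That count is near the 4.69% of all genes called higher. *Cd93* was also the gene whose 8 pool means followed those of *Vcam1* most closely. None of 15 other junction genes and none of 17 genes of barrier Wnt signalling was called, with medians of 0.17 and 0.06. Of 20 other transporters, *Slc7a5* (−0.64 ± 0.21) and the monocarboxylate carrier *Slc16a1* (−0.44 ± 0.00) were called lower.

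Of 15 other endothelial adhesion genes 1 was called, *Selp*, which fell by 0.73 ± 0.16. That count is not set apart from the 5.72% of all genes called lower. P-selectin is stored in the same granules as von Willebrand factor, and the 2 genes were called in opposite directions. Among 10 genes of leukocyte receptors for these ligands, *Itgax* was called higher, at least 6.64-fold. *Itgb2*, the β chain of LFA-1 and of other leukocyte integrins, was called higher by 1.23 ± 0.18. *Itgal*, the α chain of LFA-1, was called lower by 0.50 ± 0.10. The receptor list had a median of 0.45.

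**Figure D4:**
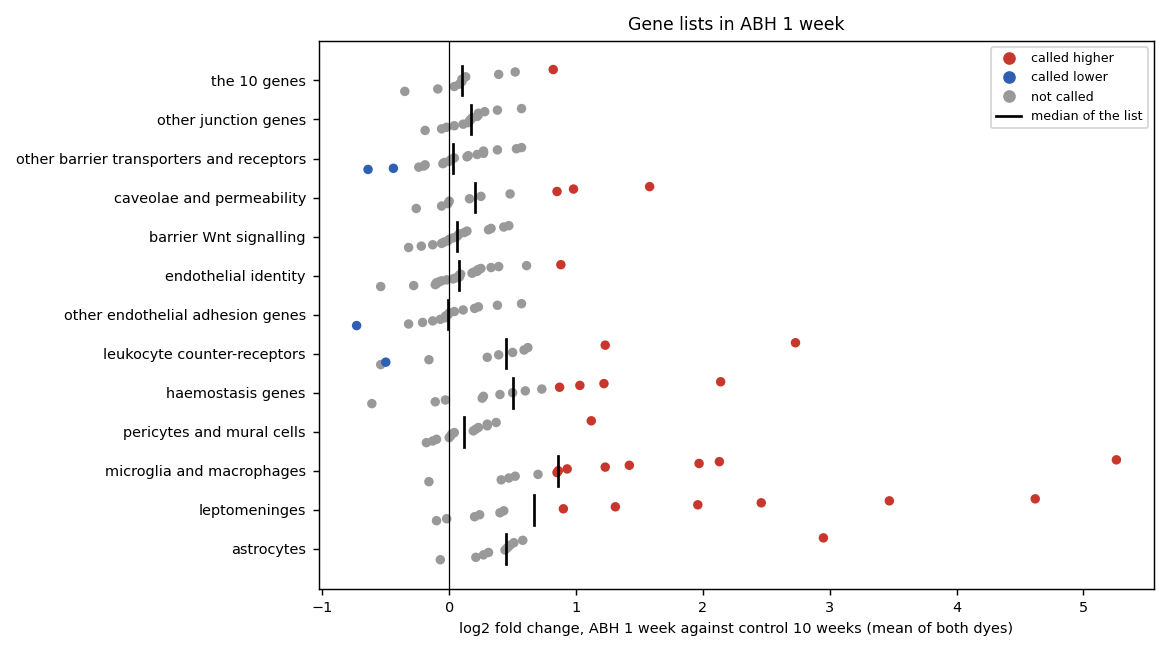
Log2 fold change (mean of both dyes) of every compared gene of the 10 and of 12 lists in ABH 1 week against control 10 weeks, coloured by call, with a bar at the median of each list. Calls are few among junction, transporter, Wnt and endothelial genes and many among microglial or macrophage genes. Of 12 leptomeningeal genes 6 were called.

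Markers of other cells moved with *Vwf* in the same pool. Of 12 leptomeningeal genes 6 were called higher, *Col1a1* (4.62 ± 0.26), *Col1a2* (3.47 ± 0.05), *Dcn*, *Lum*, *Ogn* and *Mgp*. *Slc6a20a*, *Slc22a6*, *Slc13a4*, *Slc47a1*, *Aldh1a2* and *Igf2* of the same list were not called. The summed level of that list, in which the brightest genes weigh most, was 91.0 to 91.4 against 19.7. Of 13 genes of microglia and macrophages 8 were called higher, with *Lyz2* at 5.26 ± 0.08 and *C1qa* at 2.13 ± 0.04, and the sum was 146 to 147 against 94.2 to 95.8. Of 8 blood genes 6 were called higher, with *S100a8* at 2.25 ± 0.07, and the sum was 83.1 to 89.6 against 42.5 to 45.2. *Cd163* of the macrophage list was not well above background in this pool.

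Endothelial and mural lists moved far less. The summed endothelial identity level was 108 to 110 in ABH 1 week against 102 to 104, and that of 14 pericyte and mural genes 35.9 to 36.6 against 31.9 to 33.3, with *Anpep* alone called (1.12 ± 0.11). Among 10 astrocyte genes *Gfap* was called higher (2.95 ± 0.11). Vessels of the meninges and platelets carry *Vwf* as well as cortical vessels, and the part of the leptomeningeal, macrophage and blood signals in its value was not tested. In ABH 4 weeks the leptomeningeal sum was 17.8 to 19.4 and the macrophage sum 100 to 103, near the control, and the choroid plexus sum was 62.0 to 66.0 against 29.3 to 29.9 with 9 of 13 genes called higher.

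The order of the 8 pools can be set against the dye spread alone, which comes from 2 labellings of the same RNA and holds no spread between animals. *Vwf* ran from ABH 4 weeks (1.44) through control 10 weeks (1.53), control P35 (1.60), NBH 4 weeks (1.72), control P7 (1.75) and control P14 (2.00), which NBH 1 week (2.03) did not exceed beyond that spread, to ABH 1 week (2.34). For *Mfsd2a* the gap of 0.70 ± 0.12 between NBH 4 weeks and control P14 split 5 older pools from 3 younger ones. For *Vcam1* ABH 1 week lay between these sets, 0.30 ± 0.10 above NBH 4 weeks and 0.40 ± 0.08 below control P14.

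Pool means were also correlated across the 8 pools between each of the 9 genes well above background on all arrays and 14468 genes. Such coefficients describe 8 pools in which age and surgery move many genes together. The closest 2 were *Tmem86a* and *Arpc1b* for *Vwf* (Pearson r = 0.962 and 0.954) and *Cd93* and *Rhbdf1* for *Vcam1* (both 0.991). *Mfsd2a* was followed by *Ppp3cc* and *Srr* (0.996 and 0.995), *Slc2a1* by the myelin gene *Mog* and by *Bcar3* (both 0.992), and *Abcb1a* by *Adssl1* and *Mppe1* (0.998 and 0.997).

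The remaining genes were *Pecam1* with *Samd3* and *Tbx10* (0.996 and 0.987), *Cldn5* with *Gm6787* and *Fem1a* (0.995 and 0.985), *Plvap* with *Tbc1d17* and *Maf1* (0.985 and 0.980), and *Ocln* with *Gamt* and *Ccn2* (0.947 and 0.938). The number of genes at 0.95 or more was 508 for *Abcb1a*, 234 for *Mfsd2a*, 3 for *Vwf* and 0 for *Ocln*. *Arpc1b*, a subunit of the actin-nucleating Arp2/3 complex, stood at 2.37 in ABH 1 week and 0.82 in control 10 weeks, and *Tmem86a* at 1.48 and 0.47, so both shared the ABH 1 week maximum of *Vwf*.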

How the data were processed

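Per the labels and file headers, each of 8 RNA pools was hybridised to 1 Cy3 and 1 Cy5 array of the Agilent mouse 8 × 60 K design (grid on mm9) and read with Feature Extraction 11.0.1.1, and the deposited values are intensity in scanner units. The study's methods describe LOWESS normalization between dyes, but the headers record none. The deposited value table held the authors' processed intensity rounded to 3 digits (within 0.497%) and was used as an alternative. Every column of per-sample values was mapped.

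The median signal of the labelled channel was corrected with limma 3.58.1 (normexp, offset 50, R 4.3.3), taken as log2, averaged over the spots of a probe without 140 to 237 outlier spots per array, and scaled to the 75th percentile of all gene probes. Probes were named through RefSeq accessions (26582 of 55681 probes, 20145 genes). A gene was compared where, in 1 pool or more, both arrays had its brightest probe well above background. A pool that was not was set no lower than the lowest such signal of its array, which gives "at least" values. The limits for a call, 1.5-fold and 0.75-fold with both dyes, are those the methods give with the RT-PCR images. The study's own selection on the arrays, by the scanner software's p-value and opposite direction on paired chips, was not used here. Recovery of known changes was tested on simulated data.

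The members, lists, comparisons and motifs were chosen with earlier results of these data known. A probe with repeated spots counted as well above background when at least 50% of its spots were. This rule and the probe set for the percentile were settled after several probe sets and spot rules had been tried and their counts compared with an earlier processing. The sets not kept and a stricter spot rule are among the alternatives. All members are named, with the 2 genes most like each. From other lists, the 2 called genes with the largest change in each direction are named, and where 5 or fewer were called others of them too, chosen after their values were seen. The same holds for the leptomeningeal genes, *Cldn3*, *Xist* and the Y-linked genes. Sequences came from RefSeq. With 1 pool in a group no p-value was computed. Some genes of the wider lists are counted but not reported here by name.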

Additional observations from a re-analysis of the deposited data

Results flagged for a closer look

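*Vwf* was above control 10 weeks with both dyes in ABH 1 week (0.81 and 0.82) and below it with both dyes in ABH 4 weeks (−0.11 and −0.07). The 2 changes share a control and lie 0.90 apart on the log2 scale, which is the difference between the 2 ABH pools themselves. *Vwf* was also above its control with both dyes in NBH 4 weeks (0.10 and 0.13), so NBH 4 weeks and ABH 4 weeks lay 0.20 apart with opposite signs. Of these 3 values that of ABH 1 week alone was called, and neither difference was tested. The NBH 4 weeks value of *Vwf* was above 0 under 18 of 19 alternatives, and −0.13 in the authors' value table without scaling. In that comparison 62.8% of all genes lay above 0.

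In the channel that held no labelled RNA, the *Abcb1a* probe was well above background on 1 array (ABH 4 weeks, Cy3) and the *Pecam1* probe on 1 array (control 10 weeks, Cy5). Over all probes, 0.755% to 1.43% per array had that flag in the empty channel. No other member had it.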

How the results depend on the processing

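The members' values were recomputed under 13 alternatives chosen at the outset and 6 chosen after seeing the data. Of 926 values under these alternatives, 727 moved by no more than the dye SD and 199 by more, and no called value changed sign. The count of genes called higher in ABH 1 week was 1 (*Vwf*). It was 2 (*Vwf* and *Icam1*) with the processed signal, with the authors' table without scaling and with quantile normalization, and 3 (*Vcam1* too) with median scaling. It was 0 with 2-fold limits, and 0 when the 75th percentile was taken over the probes well above background on each array, where *Vwf* was 0.55. With Cy3 alone, 1 gene was called lower in ABH 1 week (*Pecam1*, −0.47) and 1 in NBH 1 week (*Slc2a1*, −0.43). With 2-fold limits, control 10 weeks against control P7 kept 1 gene higher (*Abcb1a*) and 1 lower (*Mfsd2a*). *Vwf* in ABH 1 week was called under 17 of 19 alternatives (0.55 to 1.07), and *Cldn5* was called lower at 10 weeks under 11 of 18, *Pecam1* higher under 14 of 18. Alternatives that change the filter, spot or probe rule could not alter the *Vwf* value, so these counts overstate how far its call was tried.

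Over 9 scalings the share of all calls that were lower ran from 15.7% to 83.5% in ABH 1 week (55% as reported), 16.5% to 82.4% in NBH 1 week (48.1%), 80.8% to 97% in NBH 4 weeks (80.7%) and 31.4% to 90.4% in ABH 4 weeks (31.4%). The median of all genes in ABH 1 week ran from −0.31 to 0.21. The causes were not tested. *Icam1* and the second probes of *Vcam1* and *Ocln* lay near background, which limits what they can show. No paired analysis was possible because each group is 1 pool and its 2 arrays repeat the same RNA.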
